A study of Mus musculus with 10 samples.

Results

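The genes described here are 47 genes of the kinetochore, the mitotic spindle and the kinases that drive mitosis, with spindle motors of the kinesin family left out apart from Cenpe. They were taken by name, with no threshold on a measured value, from the 46517 genes in the count tables, and each of the 47 was among the 13986 genes with enough reads to be tested. RNA was sequenced from sorted tumour cells of mouse malignant peripheral nerve sheath tumours (MPNST), sarcomas that arise from Schwann cells and their precursors, kept as allografts. There were 5 tumour models, lettered A to E, and each gave 1 library of GFP+ cells and 1 library of GFP- cells. The GFP+ population expresses the CGD transgene, which the GFP- population does not express. The labels neither expand CGD nor name the promoter that drives it, and they give no genotype, strain or age, nor whether a model is 1 animal or several. Both populations were sorted from fresh tumours after collagenase dissociation, with wild-type host cells and dead cells gated out. The question put by the design is how the 2 populations of a model differ, within pairs.

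In mitosis the duplicated chromosomes are captured by spindle microtubules at their kinetochores, protein assemblies built on centromeric chromatin. Cyclin-dependent kinase 1 with its cyclins starts the process, Aurora and Polo-like kinases build the spindle and correct wrong attachments, and the spindle checkpoint delays anaphase until all chromosomes are attached. Most of these genes are transcribed in late S phase, G2 and mitosis under the MuvB complex with B-Myb and FoxM1, and their transcripts are therefore low in cells that are not dividing. MPNST are fast-growing sarcomas in which such genes are commonly active.

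Reads in genes numbered 15978673 to 22082207 per library, and each of the 47 genes had between 27 and 4017 reads in every library. Levels are given as CPM (counts scaled to library size) in the order of models A to E, and a log2 difference is GFP+ minus GFP-. Markers of lymphocytes, endothelial cells, erythroid cells and macrophages were low. The 8 lymphocyte markers summed to 0.0540 to 0.482 CPM in GFP+ and 0.0556 to 0.697 CPM in GFP- libraries, with Cd3g and Ms4a1 at 0 in all 10. The sums of 6 endothelial markers were 0.844 to 4.05 and 0.387 to 3.49 CPM. Those of 6 erythroid markers were 0 to 0.447 and 0 to 1.20 CPM, with Hba-a2, Hbb-bt and Alas2 at 0. The 11 macrophage markers summed to 8.91 to 18.1 CPM in GFP+ and 8.40 to 26.1 CPM in GFP- libraries. The 3 pericyte markers summed to 7.15 to 18.4 CPM in GFP+ libraries and reached higher in GFP- libraries, at 2.87 to 74.2 CPM. Markers of the Schwann lineage, from which MPNST arise, were present but uneven. Their 8 genes summed to 61.8 to 372 CPM in GFP+ and 20.8 to 118 CPM in GFP- libraries. The fitted value was higher in GFP+ cells for 7 of 7 tested (median log2 difference 1.49). By pair, 4, 5, 7, 7 and 6 of the 7 were higher in models A to E. The defining gene Sox10 was at 0.45 CPM or less in models A and E, where Gap43 made up most of the sum. Gap43 stood at 54.9 and 121 CPM in the GFP+ libraries of A and E and at 35.9 and 87.9 CPM in their GFP- libraries. The 5 fibroblast markers, which MPNST cells also express, summed to 16532 to 28362 and 16290 to 31755 CPM. In bulk RNA, a larger share of dividing cells and more of a transcript per dividing cell cannot be told apart.

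Mitotic genes stood higher in GFP+ cells nearly throughout the list, by margins that ranged from near 0 to over 2-fold among the tumour models. The fitted log2 difference was above 0 for 46 of the 47 genes, where 49.3% of all tested genes were above 0, and the median over the list was 0.71 against -0.0028 over all tested genes. The largest fitted values were those of Nusap1 (1.29), a microtubule-bundling protein, Top2a (1.18), the topoisomerase that untangles sister chromatids, and Aurkb (1.18), the kinase of the chromosomal passenger complex. The smallest were those of Ccnb2 (0.16), Cenpm (0.12) and Pttg1 (-0.15), and Pttg1, which encodes securin, was the 1 gene below 0.

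**Figure D1:**
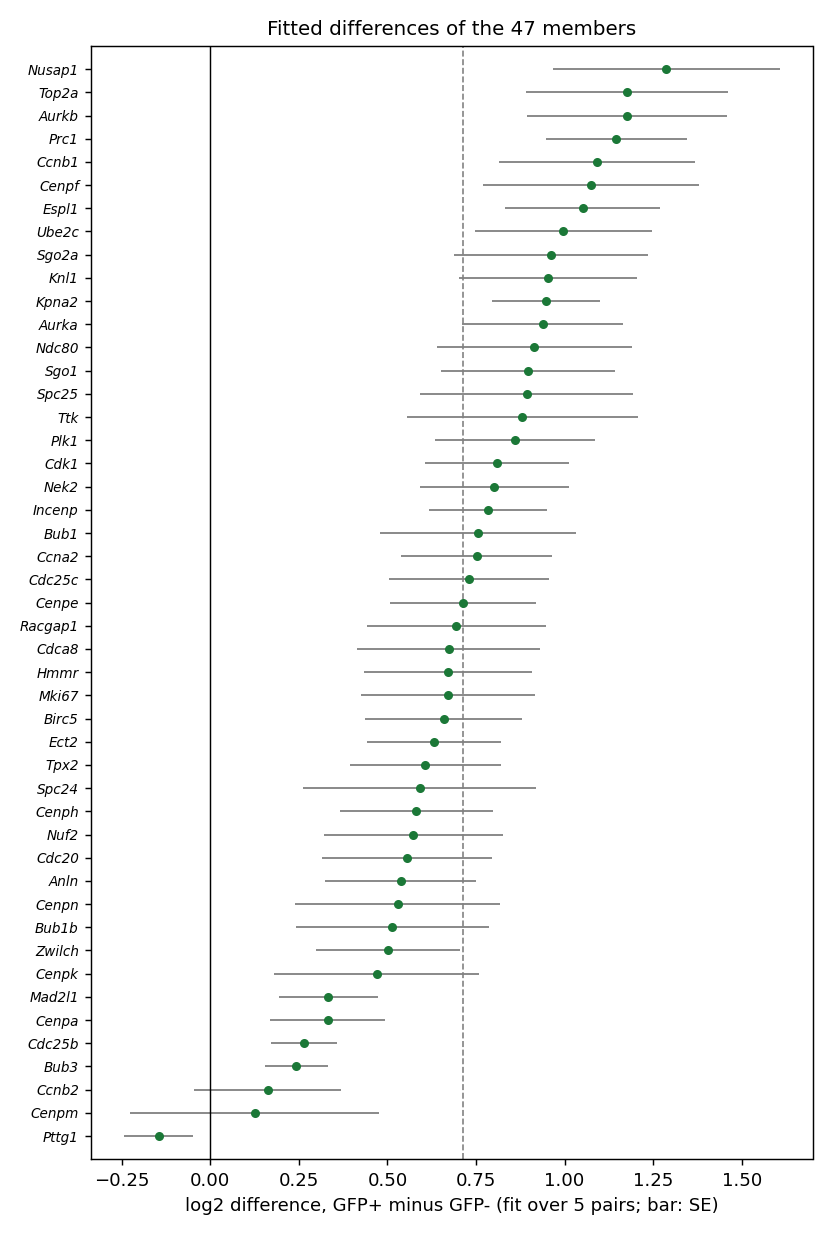
Fitted log2 differences of the 47 genes, GFP+ minus GFP-, from the paired fit over 5 tumour models, with the SE as a bar. The solid line is 0 and the dashed line is the median of the list, 0.71; 46 of 47 points lie right of 0, and Pttg1, at -0.15, lies left of it.

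None of the 47 genes passed the paired test, edgeR's quasi-likelihood test with Benjamini-Hochberg adjustment over 13986 genes, and no gene of the series did (0% of genes tested). The smallest adjusted p of a member was 0.230 for Kpna2, followed by 0.261 for Prc1, and the largest was 0.953 for Cenpm. Before adjustment, 37 of the 47 genes had p under 0.05, all of them higher in GFP+ cells, against 5.50% of tested genes that were higher at that level. In the other direction the count was 0 of 47, against 3.49% of tested genes. The 37 became 24 without pair B, 23 without pair D and 19 without the pairing. Over all tested genes, in either direction, the share at that level was 8.99%, and it fell to 5.69%, 5.73% and 1.36% in the same fits. By other tests the outcome differed. DESeq2 with the same pairing called 17 of the 47, all higher (background 0.994% of tested genes), and edgeR's likelihood-ratio test called 15, all higher and all among those 17 (background 1.10%). The 17 were Aurka, Aurkb, Ccna2, Ccnb1, Cdk1, Cenpf, Espl1, Incenp, Knl1, Kpna2, Nek2, Nusap1, Plk1, Prc1, Sgo2a, Top2a and Ube2c. The quasi-likelihood test without the filter on low counts called 3, Espl1, Kpna2 and Prc1, all higher (background 0.144% higher and 0.0388% lower).

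Pair by pair, the differences of the 47 genes had different sizes in the 5 models. In pair B the median log2 difference was 1.57, and 46 of 47 genes were higher in GFP+ cells (52.5% of tested genes were). In pair D it was 1.14, again with 46 of 47 higher (50.4%). Pairs C and E had medians of 0.45 and 0.40, with 44 (48.6%) and 43 (50.1%) of 47 genes higher. In pair A the median was 0.04 and 25 of 47 were higher, close to the 49.6% of tested genes. A difference of more than 2-fold was reached by 42 of 47 genes in pair B (5.79% of tested genes) and by 33 in pair D (3.52%), but by 2 in pair E (5.53%), 0 in pair A (4.66%) and 0 in pair C (2.55%). Pairs B and D held the 2 largest differences for 45 of the 47 genes, and pair A the smallest for 40. The same order of pairs was not counted over all tested genes, so these counts have no background. All 5 pairs were higher in GFP+ cells for 24 genes (5.12% of tested genes), 4 of 5 for 19, 3 for Bub1b and Ccnb2, 2 for Cenpm and 0 for Pttg1. Whether the difference itself depends on the model could not be tested, since each model gave 1 library per population.

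**Figure D2:**
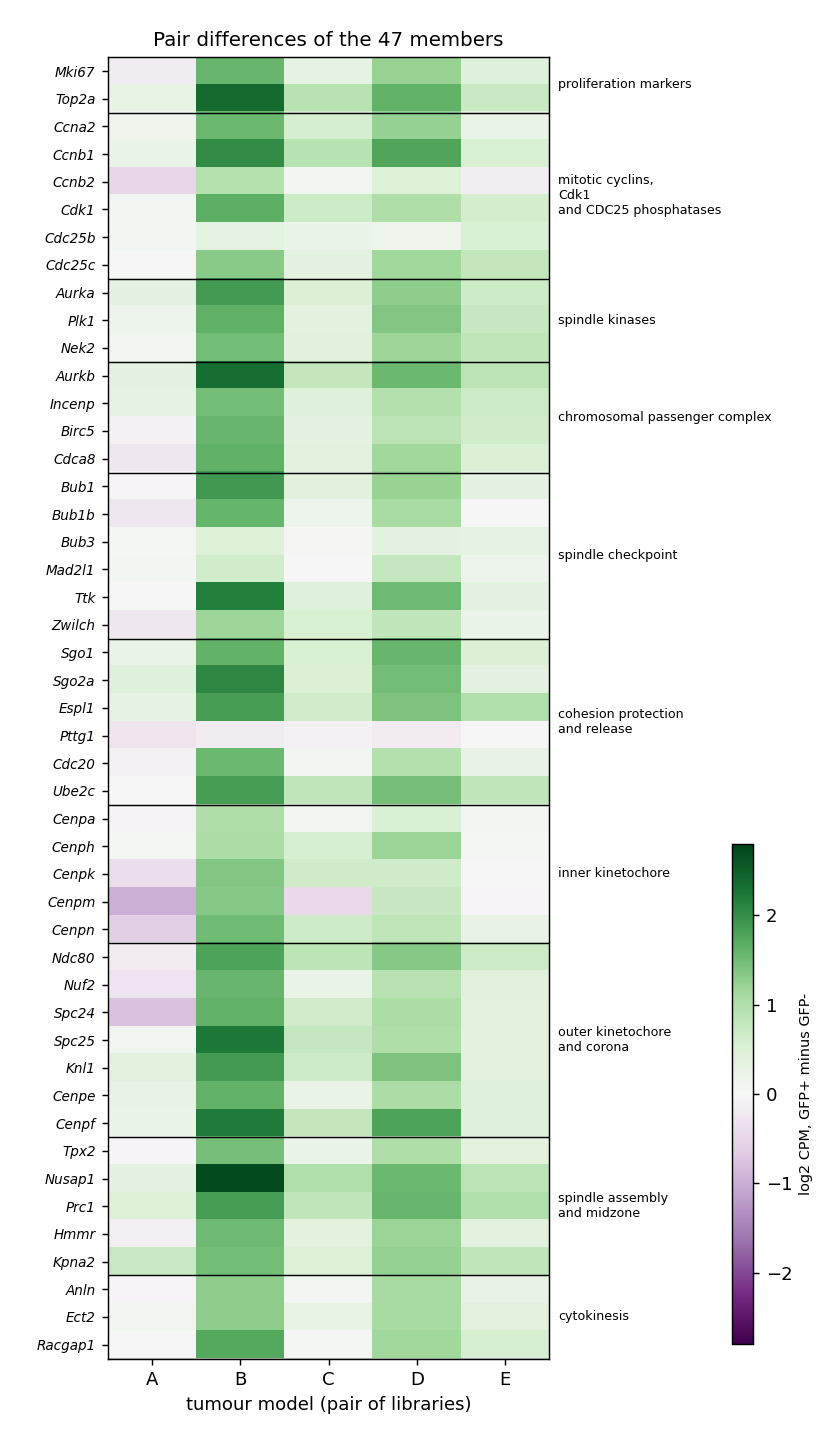
Log2 CPM differences, GFP+ minus GFP-, of each of the 47 genes in each of the 5 tumour models (1 pair of libraries per column), grouped by role; green is higher in GFP+ cells and purple is lower. Columns B and D, with medians of 1.57 and 1.14, are the darkest green, and column A, with a median of 0.04, is close to white with purple cells in the inner kinetochore group.

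The summed level of the 47 genes also differed most between the populations in models B and D and least in model A. It was 1828, 2263, 1254, 1704 and 1982 CPM in GFP+ cells and 1768, 802, 941, 796 and 1430 CPM in GFP- cells, or 1806 ± 373 against 1148 ± 433 CPM (SD, n = 5 each). The GFP- libraries of models B, C and D lay below every GFP+ library, and those of A and E lay within the range of GFP+ cells. The ratio of GFP+ to GFP- was 2.82 in model B, 2.14 in D, 1.39 in E, 1.33 in C and 1.03 in A. The highest GFP- library was A or E for 44 of the 47 genes, the lowest was B or D for 28 and C for 17. Among GFP+ libraries, model C was lowest for 39 genes and model B highest for 30. These orders of libraries were not counted over all tested genes, so they cannot be set apart from an order of the libraries at large. The levels spread more widely among GFP- than among GFP+ libraries: the SD of log2 CPM over the 5 models was larger in GFP- cells for 42 of 47 genes (63.4% of tested genes), with a median of 0.64 against 0.49, where all tested genes had 0.43 against 0.38. Markers of other cells also differed within pairs. The 3 pericyte markers summed to 7.39, 17.3, 12.6, 18.4 and 7.15 CPM in GFP+ and 29.4, 26.5, 12, 74.2 and 2.87 CPM in GFP- libraries, so that the GFP- library was higher in pairs A, B and D. The Schwann lineage markers summed to 61.8, 111, 203, 372 and 126 CPM in GFP+ and 39.3, 20.8, 118, 72.2 and 91.0 CPM in GFP- libraries. Gap43 made up most of this sum in both libraries of models A, B and E and in the GFP- libraries of C and D. The ratio of GFP+ to GFP- for the summed fibroblast markers was 1.33, 0.751, 0.942, 0.711 and 1.01 in models A to E. It was lowest in the 2 models, B and D, with the largest differences of the mitotic genes. The 5 fibroblast markers did not move together: 2, 1, 2, 1 and 2 of them were higher in GFP+ cells in pairs A to E. Pdgfra was lower in GFP+ cells in 5 of 5 pairs. Dcn was higher in GFP+ cells in models B (136 against 69.7 CPM) and D (1427 against 1060 CPM). The part of these markers in the result was not tested.

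**Figure D3:**
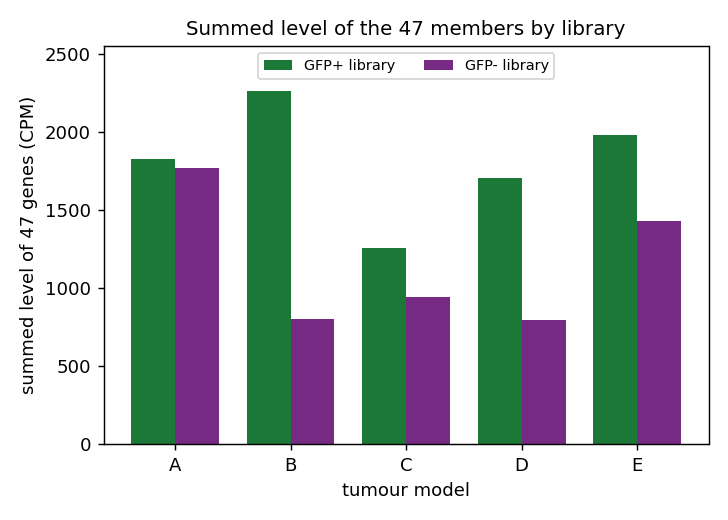
Summed level of the 47 genes in CPM (vertical axis, from 0) in each of the 10 libraries, by tumour model; each bar is 1 library. GFP+ bars range from 1254 to 2263 CPM, and the GFP- bars of models B and D, at 802 and 796 CPM, are the lowest.

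Promoter sequences of the 47 genes were examined for elements known from genes of this kind. Genes expressed in G2 and mitosis are known for a CCAAT box, bound by NF-Y, and for a cell cycle homology element near the start, read as TTTGAA or TTCGAA and bound by MuvB. Windows of 250 bases before to 50 bases after the RefSeq start (assembly GRCm38.p6) were found for 40 of the 47 genes, and none was found for Ccna2, Cdc25c, Aurkb, Incenp, Zwilch, Spc24 and Tpx2. On either strand, CCAAT occurred in 32 of the 40 (80%), against 41.1% of all 27025 genes with such a window and 43.0% of those tested. TTTGAA or TTCGAA occurred in 29 (72.5%), against 21.7% and 16.1%. Both kinds occurred together in 26 (65.0%), against 8.61% and 6.75%. Birc5, Mad2l1, Pttg1, Nuf2 and Nusap1 held none of the 3 motifs. The share with both kinds was 51.4% of 37 other mitotic regulators, 26.9% of 26 other kinetochore genes and 17.2% of 29 DNA replication genes. It was 35.3% of 17 MuvB, FoxM1, E2F and NF-Y regulators and 5.88% of 17 gamma-tubulin and centriole genes. Both kinds occurred in 2 of 8 cohesin genes and 0 of 15 subunits of the anaphase-promoting complex. These shares did not follow the median log2 differences of the lists. MuvB, FoxM1, E2F and NF-Y regulators (median 0.13) had a larger share than other kinetochore (0.21) or DNA replication genes (0.37). The median log2 difference was 0.73 in the 26 genes with both kinds and 0.69 in the 14 without both. A motif found here is a match of letters and not a measured binding site. TTCGAA reads the same on both strands, no motif holds another, and a gene with several starts was counted if any of them matched.

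Upstream stretches are given for the 4 genes with the smallest p among those that hold both kinds of motif within 120 bases before the start. Incenp and Aurkb had a smaller p than Top2a, but no window was found for them. The stretches run 5′ to 3′ on the strand of the gene, with the motifs in capitals on either strand (ATTGG is CCAAT and TTCAAA is TTTGAA on the opposite strand). In the coordinates of GENCODE vM21 (mm10), Kpna2 (ENSMUSG00000018362) lies on chromosome 11 from 106988629 to 106999541 on the minus strand and its stretch at chr11:106999546-106999645. Prc1 (ENSMUSG00000038943) lies on chromosome 7 from 80294450 to 80316259 on the plus strand with its stretch at chr7:80294356-80294451 before the second of 2 starts. Espl1 (ENSMUSG00000058290) lies on chromosome 15 from 102296266 to 102324357 on the plus strand with chr15:102296173-102296271, and Top2a (ENSMUSG00000020914) on chromosome 11 from 98992943 to 99024189 on the minus strand with chr11:99024207-99024309.
Kpna2: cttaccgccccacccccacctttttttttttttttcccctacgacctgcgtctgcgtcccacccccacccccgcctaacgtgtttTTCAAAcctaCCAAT
Prc1: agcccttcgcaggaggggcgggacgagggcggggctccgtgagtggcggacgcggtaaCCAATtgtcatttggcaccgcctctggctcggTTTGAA
Espl1: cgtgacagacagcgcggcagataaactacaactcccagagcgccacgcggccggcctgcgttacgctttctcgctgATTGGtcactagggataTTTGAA
Top2a: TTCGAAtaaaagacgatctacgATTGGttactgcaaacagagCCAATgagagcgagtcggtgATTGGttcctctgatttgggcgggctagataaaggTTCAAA
In each of the 4, a TTTGAA or its reverse lies within 35 bases of the start. Top2a holds 3 CCAAT matches in the stretch, and the other 3 genes hold 1 each. In GENCODE vM21 the annotated span of Prc1 begins within the TTTGAA match and that of Espl1 at its first base.

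The proliferation markers Mki67, which coats mitotic chromosomes and marks cycling cells, and Top2a both had higher fitted values in GFP+ cells. Top2a stood at 132, 207, 164, 163 and 198 CPM in GFP+ cells and 108, 39.7, 86.9, 53.2 and 119 CPM in GFP- cells. Every GFP+ library was above every GFP- library, which held for 2 of the 47 genes, Top2a and Kpna2, and for 0.0858% of tested genes; in each of the other 45 the groups overlapped. The fitted log2 difference was 1.18 (SE 0.28), with all 5 pairs higher. Mki67 stood at 108, 197, 83.8, 129 and 129 CPM in GFP+ cells and 123, 66.2, 67.7, 55.4 and 94.2 CPM in GFP- cells. Its groups overlapped, pair A was lower in GFP+ cells, and the log2 difference was 0.67 (SE 0.25), or 0.44 without pair B.

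Cyclins, Cdk1 and the CDC25 phosphatases, which start mitosis, were higher in 6 of 6 members, with a median log2 difference of 0.74 and adjusted p from 0.372 to 0.866. Cdk1, the kinase of mitotic entry, stood at 35.4, 49.97, 94, 37.7 and 83.5 CPM in GFP+ cells and 33.5, 15.8, 58.4, 18.6 and 53.8 CPM in GFP- cells. Both libraries of models C and E stood above the rest of their population, and each GFP+ library was above its GFP- partner (0.81, SE 0.20). Ccna2, cyclin A2 of S phase and G2, stood at 114, 89.6, 46, 75.6 and 114 CPM in GFP+ cells and 103, 30.7, 30.1, 31.9 and 96.1 CPM in GFP- cells, with 5 of 5 pairs higher (0.75, SE 0.21). The 2 B-type cyclins that partner Cdk1 differed in their values. Ccnb1 stood at 25.3, 24.4, 11.3, 21.2 and 23 CPM in GFP+ cells and 21.6, 5.94, 5.89, 6.21 and 15.5 CPM in GFP- cells, higher in 5 of 5 pairs, with a log2 difference of 1.09 (SE 0.28). Ccnb2 stood at 28, 40.8, 16.2, 29.4 and 25.9 CPM in GFP+ cells and 40.7, 20.9, 15.5, 21.2 and 28.7 CPM in GFP- cells, lower in GFP+ cells in pairs A and E, with a log2 difference of 0.16 (SE 0.21), or -0.040 without pair B. Cdc25b, a phosphatase that activates Cdk1, was higher in 5 of 5 pairs, by 0.087 to 0.558 (fitted 0.26, SE 0.09). Cdc25c was higher in 4 of 5 (0.73, SE 0.23). Ccnb1, Ccnb2 and Kpna2 have named pseudogenes in the annotation, and reads that map to several places are not counted, so their levels are uncertain.

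**Figure D4:**
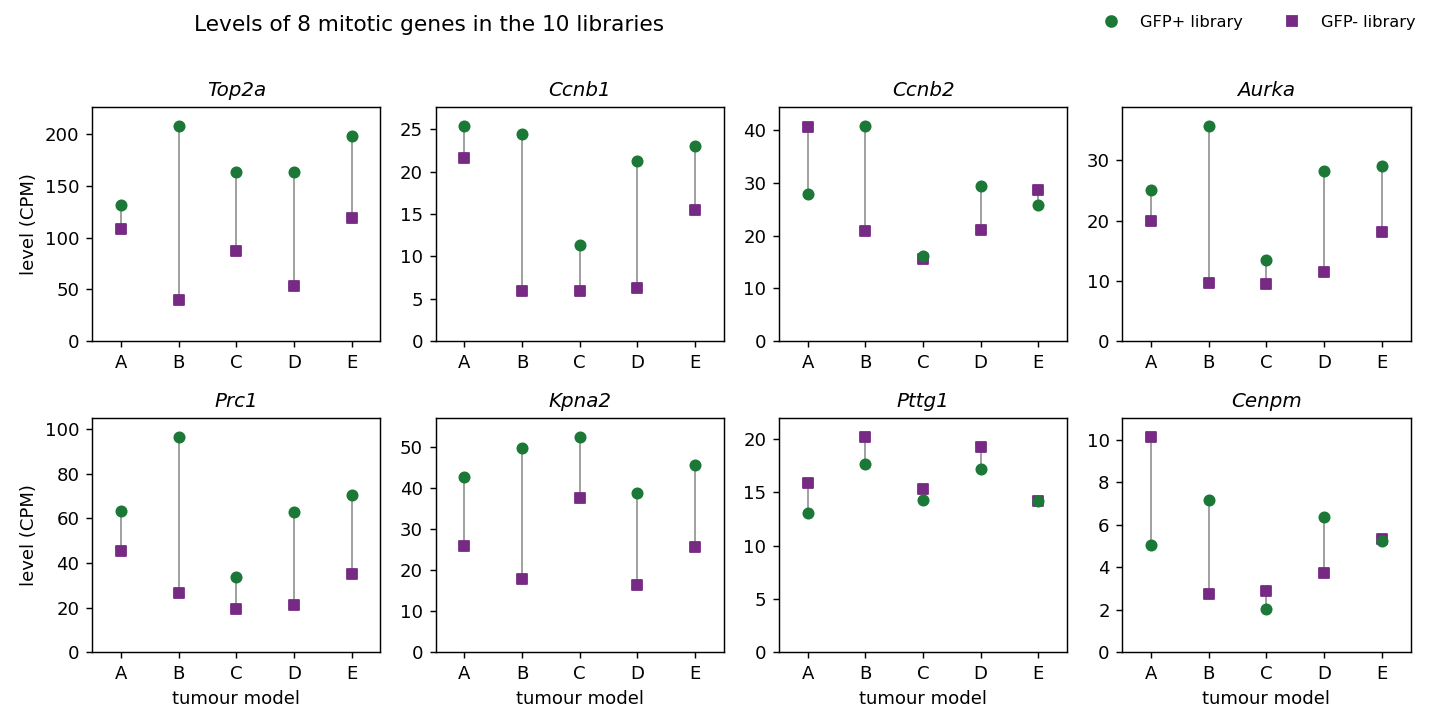
Levels in CPM (vertical axes, from 0) of 8 genes in the 10 libraries by tumour model; circles are GFP+ and squares GFP- libraries, and a line joins the 2 libraries of a model. Top2a and Kpna2 have every circle above every square, the circle of Ccnb2 lies below its square in models A and E, and no circle of Pttg1 lies above its square.

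The spindle kinases Aurka, Plk1 and Nek2, which mature centrosomes and separate the spindle poles, were each higher in 5 of 5 pairs (adjusted p 0.363 to 0.379). Aurka, the centrosomal Aurora kinase, stood at 25.1, 35.6, 13.4, 28.2 and 29.1 CPM in GFP+ cells and 19.9, 9.71, 9.40, 11.5 and 18 CPM in GFP- cells, with a log2 difference of 0.94 (SE 0.23). Plk1, the Polo-like kinase, stood at 37.1, 42.4, 16, 31.3 and 39.6 CPM in GFP+ cells and 32.8, 13.6, 12.5, 12 and 23.3 CPM in GFP- cells (0.86, SE 0.23). Model C was the lowest library of GFP+ cells for both, and the GFP- libraries of A and E reached into the GFP+ range. Nek2, a kinase that splits centrosomes, stood at 19.7, 27.3, 9.55, 18.1 and 15 CPM in GFP+ cells and 18.4, 9.76, 7.17, 8.05 and 8.40 CPM in GFP- cells (0.80, SE 0.21), and its GFP- library of model A lay far above the other GFP- libraries.

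The 4 genes of the chromosomal passenger complex, which releases wrong attachments at the inner centromere, had a median log2 difference of 0.73 and adjusted p from 0.329 to 0.509. Aurkb, its kinase, stood at 15, 21, 10.8, 15.2 and 18.8 CPM in GFP+ cells and 11.8, 4.10, 6.17, 5.13 and 10.1 CPM in GFP- cells, with a log2 difference of 1.18 (SE 0.28). Incenp, its scaffold, stood at 58.4, 63.8, 38.2, 52.7 and 86.9 CPM in GFP+ cells and 47, 22.8, 27.9, 26.7 and 53.4 CPM in GFP- cells and had the smallest adjusted p of the complex, 0.329 (0.78, SE 0.17). Both were higher in 5 of 5 pairs. The GFP- library of A reached into the GFP+ range for Aurkb, and those of A and E for Incenp. Birc5, survivin, stood at 29.96, 39.9, 33.4, 26.8 and 36.7 CPM in GFP+ cells and 32.3, 13.5, 26.6, 14.5 and 23.4 CPM in GFP- cells (0.66, SE 0.22). Cdca8, borealin, stood at 25.7, 28.4, 13.2, 23.8 and 29.1 CPM in GFP+ cells and 30.6, 9.11, 10.3, 10.7 and 20.6 CPM in GFP- cells (0.67, SE 0.26). Birc5 and Cdca8 were lower in GFP+ cells in pair A, and without pair B their differences were 0.44 and 0.43.

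Spindle checkpoint genes, whose products hold back anaphase at unattached kinetochores, had a median of 0.51 (0.29 without pair B), with 6 of 6 above 0 and adjusted p from 0.479 to 0.620. Bub3, an adaptor shared by Bub1 and BubR1, stood at 63.7, 77.8, 75.6, 67.5 and 92.4 CPM in GFP+ cells and 61.8, 56, 73.5, 53.3 and 74.3 CPM in GFP- cells. Its fitted difference was small (0.24, SE 0.09), and its pair differences ran from 0.041 to 0.475. Their SD was 0.193, against 0.776 for Bub1, whose fitted difference was larger. Bub1, the checkpoint kinase, stood at 22, 26.4, 11.8, 21.4 and 22.2 CPM in GFP+ cells and 22.6, 7.09, 8.90, 9.13 and 17.5 CPM in GFP- cells, with 4 of 5 pairs higher (0.76, SE 0.28, 0.48 without pair B). Ttk, the kinase that starts checkpoint signalling, stood at 15.2, 21.2, 7.88, 14.3 and 18 CPM in GFP+ cells and 15.2, 4.69, 5.73, 4.88 and 14.2 CPM in GFP- cells (0.88, SE 0.33, 0.56 without pair B). Bub1b, which encodes BubR1, stood at 67.7, 63.8, 23.5, 54.3 and 54.3 CPM in GFP+ cells and 81, 21, 20.7, 25.4 and 54.4 CPM in GFP- cells, higher in 3 of 5 pairs, with the largest p of the group (0.51, SE 0.27, 0.24 without pair B). Mad2l1, the checkpoint effector Mad2, and Zwilch, a part of the RZZ complex, were each higher in 4 of 5 pairs, at 0.33 (SE 0.14) and 0.50 (SE 0.20); Zwilch had 0.33 without pair B.

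Genes that protect and release sister chromatid cohesion had a median of 0.93 over 6 members, with 5 above 0 and adjusted p from 0.329 to 0.697. Espl1, separase, the protease that cleaves cohesin, stood at 36.3, 45.2, 17.5, 28.3 and 26.5 CPM in GFP+ cells and 29, 12.4, 11.1, 10.6 and 13.2 CPM in GFP- cells. All 5 pairs were higher, with a log2 difference of 1.05 (SE 0.22). Its inhibitor securin, Pttg1, was the exception of the list. Pttg1 stood at 13.1, 17.7, 14.2, 17.2 and 14.2 CPM in GFP+ cells and 15.8, 20.2, 15.3, 19.3 and 14.2 CPM in GFP- cells. Its levels ranged from 13.1 to 20.2 CPM over the 10 libraries and the groups overlapped, no pair was higher in GFP+ cells, and the difference was -0.15 (SE 0.10), with the smallest SD of pair differences of the list, 0.101. Ube2c, the ubiquitin-conjugating enzyme of the anaphase-promoting complex, stood at 34.1, 47.9, 20.02, 38 and 44.5 CPM in GFP+ cells and 34, 13.1, 11.2, 13.8 and 25 CPM in GFP- cells (1.00, SE 0.25). Sgo1, shugoshin, the protector of centromeric cohesin, stood at 11.1, 12.7, 5.72, 11.9 and 14 CPM in GFP+ cells and 9.38, 4.10, 3.84, 3.99 and 9.89 CPM in GFP- cells (0.90, SE 0.25), and its relative Sgo2a had 0.96 (SE 0.27). Each of the 3 was higher in 5 of 5 pairs. Cdc20, the activator of the anaphase-promoting complex, was higher in 4 of 5 (0.56, SE 0.24; 0.31 without pair B).

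The inner kinetochore genes, which mark and bind centromeric chromatin, had a median of 0.47 (0.23 without pair B), with 5 of 5 above 0, 1 of 5 at an unadjusted p under 0.05 and adjusted p from 0.489 to 0.953. Cenph stood at 10.4, 11.3, 6.58, 11.9 and 12.7 CPM in GFP+ cells and 10.1, 5.34, 4.39, 5.20 and 12.3 CPM in GFP- cells (0.58, SE 0.22, 5 of 5 pairs higher). Cenpa, the centromeric histone H3 variant, stood at 50.1, 46.6, 20.6, 35 and 55.1 CPM in GFP+ cells and 52.3, 23, 19.3, 24.1 and 52.1 CPM in GFP- cells (0.33, SE 0.16, 0.16 without pair B). Cenpn, which reads the Cenpa nucleosome, stood at 9.02, 10.4, 8.91, 8.89 and 13.4 CPM in GFP+ cells and 14, 3.59, 5.50, 4.94 and 11.1 CPM in GFP- cells (0.53, SE 0.29), and the difference became 0.28 with pair B left out and 0.82 with pair A left out. Cenpm stood at 5.06, 7.18, 2.05, 6.37 and 5.21 CPM in GFP+ cells and 10.1, 2.76, 2.89, 3.74 and 5.31 CPM in GFP- cells, lower in GFP+ cells in pairs A, C and E, with a log2 difference of 0.12 (SE 0.35), or -0.19 without pair B. Cenpk had the fewest reads of the list, 27 to 82 per library, with a difference of 0.47 (SE 0.29), or 0.23 without pair B. Pair A was below 0 for 4 of these 5 genes, with a median of -0.41.

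The outer kinetochore and corona, which hold the microtubules, had a median of 0.89 (0.57 without pair B), with 7 of 7 above 0 and adjusted p from 0.379 to 0.638. The difference from the inner kinetochore was not tested. Knl1, the docking platform of the checkpoint, stood at 11.8, 20.7, 7.93, 12 and 12.7 CPM in GFP+ cells and 8.97, 5.61, 4.89, 4.44 and 9.73 CPM in GFP- cells (0.95, SE 0.25). Cenpf, a corona protein of G2 and mitosis, stood at 25.6, 49.7, 17.3, 30.2 and 24.4 CPM in GFP+ cells and 22.3, 10.8, 9.95, 8.75 and 17.8 CPM in GFP- cells (1.08, SE 0.30). Cenpe, a motor of the corona, stood at 76.5, 55.1, 30.4, 49.4 and 65.5 CPM in GFP+ cells and 63.7, 18.1, 25.7, 24 and 47.9 CPM in GFP- cells (0.71, SE 0.21). These 3 were higher in 5 of 5 pairs. The 4 subunits of the NDC80 complex, the main microtubule coupler, had 0.91 (Ndc80), 0.57 (Nuf2), 0.59 (Spc24) and 0.89 (Spc25). With pair B left out Nuf2 had 0.32 and Spc25 had 0.57. Spc24 stood at 6.03, 11, 5.72, 9.53 and 10.1 CPM in GFP+ cells and 10.4, 3.54, 3.61, 4.5 and 7.79 CPM in GFP- cells, with an SE of 0.33, and its value became 0.32 with pair B left out and 0.93 with pair A left out.

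Spindle assembly and midzone genes had a median of 0.95, with 5 of 5 above 0 and adjusted p from 0.230 to 0.478. Kpna2, importin alpha, a nuclear import factor that holds spindle assembly factors, stood at 42.8, 49.9, 52.4, 38.8 and 45.6 CPM in GFP+ cells and 25.8, 17.9, 37.7, 16.4 and 25.7 CPM in GFP- cells. The groups did not overlap, the log2 difference was 0.95 (SE 0.15), all 5 pairs were higher, and the adjusted p was 0.230 in the quasi-likelihood test of edgeR and 3.89e-05 in DESeq2. Prc1, which bundles the antiparallel microtubules of the midzone, stood at 63.5, 96.3, 33.9, 63 and 70.5 CPM in GFP+ cells and 45.5, 26.6, 19.3, 21.1 and 35 CPM in GFP- cells. Only the GFP+ library of model C, at 33.9 CPM, lay within the range of GFP- libraries, and the log2 difference was 1.15 (SE 0.20), with an adjusted p of 0.261 in the quasi-likelihood test of edgeR and 2.31e-05 in DESeq2. Nusap1 stood at 17.7, 32.9, 11.2, 20.1 and 22.2 CPM in GFP+ cells and 13.8, 4.92, 5.62, 6.85 and 12 CPM in GFP- cells (1.29, SE 0.32). Hmmr, a spindle pole protein, stood at 28.2, 38, 14.1, 27.2 and 34.3 CPM in GFP+ cells and 30.6, 13.2, 10.8, 11.9 and 26.2 CPM in GFP- cells, with pair A lower in GFP+ cells (0.67, SE 0.24), and Tpx2, the activator of Aurka on the spindle, had 0.61 (SE 0.21; 0.40 without pair B).

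The cytokinesis genes Ect2, Racgap1 and Anln, which set up the contractile ring through RhoA, had a median of 0.63 and adjusted p from 0.420 to 0.520. Ect2, the exchange factor for RhoA, stood at 49.5, 39.3, 21.9, 32.5 and 45.5 CPM in GFP+ cells and 46.4, 16.1, 17.7, 15.1 and 34.6 CPM in GFP- cells, higher in 5 of 5 pairs (0.63, SE 0.19). Racgap1, the centralspindlin subunit that binds Ect2, stood at 74.7, 87.5, 32.7, 65.2 and 64.2 CPM in GFP+ cells and 75.1, 26.7, 31.3, 29.5 and 42.8 CPM in GFP- cells (0.69, SE 0.25, 0.44 without pair B). Anln, anillin, stood at 125, 157, 98.3, 118 and 101 CPM in GFP+ cells and 128, 64.4, 93, 54.9 and 84.1 CPM in GFP- cells (0.54, SE 0.21, 0.35 without pair B).

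Between relatives in the list, 5 pairs of genes chosen after their values were seen were compared by the difference of their pair differences. The pair difference of Ccnb1 exceeded that of Ccnb2 by 0.94 ± 0.23 on the log2 scale (SD, n = 5 pairs, larger in 5 of 5). That of Bub1 exceeded that of Bub1b by 0.24 ± 0.08, and that of Aurkb exceeded that of Aurka by 0.24 ± 0.16, each in 5 of 5 pairs. In an exact two-sided sign-flip test each of these 3 reached p = 0.0625, the smallest that 5 pairs allow, and 0.104 after Benjamini-Hochberg adjustment over the 5 comparisons. That of Cdc25c exceeded that of Cdc25b in 4 of 5 pairs by 0.46 ± 0.52 (exact p = 0.125, adjusted 0.156). Sgo2a minus Sgo1 was 0.08 ± 0.26 (exact p = 0.688, adjusted 0.688). Since the genes were chosen from the same values, the exact and adjusted p-values have no known error rate. The test also could not go below 0.0625 with 5 pairs. No conclusion is drawn from these p-values, and the differences are given as description only.

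Levels of 9 of the 47 genes differed between the tumour models in edgeR's quasi-likelihood F test of the model at an adjusted p under 0.05, where 54.7% of tested genes did. Each model has 2 libraries, its GFP+ and its GFP- cells, so the test compares these 5 models only. Cdc25b had the smallest adjusted p, 0.00305, with model means of 53.2, 45.7, 27.8, 26.3 and 28.1 CPM in models A to E. Cenpa (adjusted p 0.0121) had 51.2, 34.8, 19.9, 29.5 and 53.6 CPM, and Ccna2 (0.0176) had 108, 60.2, 38, 53.8 and 105 CPM, both highest in A and E and lowest in C. Cdk1 (0.0143) ran otherwise, with 34.5, 32.9, 76.2, 28.2 and 68.6 CPM, highest in C and E. The other 5 were Ect2 (0.0253), Cenpe (0.0335), Nuf2 (0.0342), Incenp (0.0427) and Cdc20 (0.0478), and model C was lowest in each of them. Nuf2 had 18.8, 26.1, 6.51, 17.2 and 23.3 CPM. The count of 9 became 1 (Cdc25b) without model C, where the share of all tested genes also fell, to 28.6%. It became 24 without model B (48.2% of tested genes) and 21 without a filter (31.9%). In DESeq2 it was 25 (60%) and in the likelihood-ratio test 23 (64.8%).

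Other lists of the cell cycle place the 47 genes among their neighbours, and no gene of these lists passed the paired test. Over all tested genes, 49.3% were higher in GFP+ cells, and 5.50% were higher at an unadjusted p under 0.05. Other mitotic regulators and condensins were closest: 48 of 48 were higher in GFP+ cells, 37 had an unadjusted p under 0.05, and the median log2 difference was 0.66. Their smallest p values belonged to Cit, citron kinase of the midbody (0.83, SE 0.14, 59.1 ± 21.5 against 33.1 ± 13.3 CPM, SD, n = 5), and Gtse1, a microtubule-tip protein of G2 (1.08, SE 0.18). DNA replication genes were higher in 35 of 36, with 13 at an unadjusted p under 0.05 and a median of 0.37 (0.19 without pair B), led by Gins3 of the replicative helicase (0.65) and Chaf1a, a histone chaperone (0.43). Other kinetochore genes were higher in 27 of 29, with 9 at that level and a median of 0.21, and Cenpi, a subunit of the inner kinetochore, had 0.61 (SE 0.17).

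The other 4 lists had medians closer to 0. Gamma-tubulin and centriole genes were higher in 18 of 22, with 3 at an unadjusted p under 0.05 and a median of 0.15 (0.070 without pair B), led by Cep192 (0.47) and Stil (0.80), both of centriole duplication. MuvB, FoxM1, E2F and NF-Y regulators were higher in 17 of 21, with 5 at that level and a median of 0.13, led by the repressor E2f8 (0.78, SE 0.15) and the pocket protein Rbl1 (0.54). Cohesin genes were higher in 7 of 13, with 1 at that level and a median of 0.04 (-0.029 without pair B and -0.017 without pair D), led by the acetyltransferase Esco2 (0.90) and Stag1 (-0.11). Subunits and activators of the anaphase-promoting complex were higher in 8 of 16, with 1 at that level and a median of -0.0024 (-0.033 to 0.0079 with 1 pair left out), led by Fzr1 (0.26) and Anapc5 (-0.22). In the lower direction no gene of these lists had an unadjusted p under 0.05, against 3.49% of tested genes. The counts of the cohesin and anaphase-promoting complex lists lay close to the shares over all tested genes. Those shares were 49.3% higher, and 5.50% higher at an unadjusted p under 0.05. Pairs B and D had the 2 largest medians in each of the 8 lists in the plot of list medians. For the anaphase-promoting complex those were 0.09 and 0.10. The same 2 pairs had the largest medians over all tested genes, at 0.024 in B and 0.0034 in D.

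**Figure D5:**
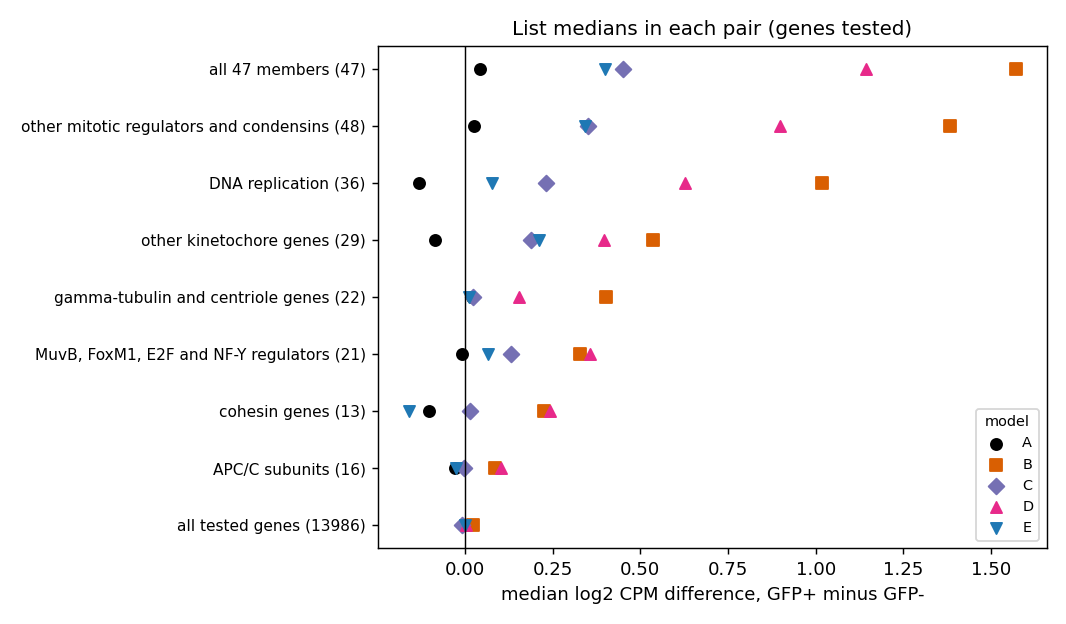
Median log2 CPM difference, GFP+ minus GFP- (horizontal axis), of the 47 genes, of 7 other cell cycle lists and of all tested genes in each of the 5 tumour models (symbols); the number of genes is in brackets. The 47 genes spread from 0.04 in model A to 1.57 in model B, and the median of all tested genes is between -0.0071 and 0.024 in each model.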

How the data were processed

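Per the labels, GFP+ and GFP- tumour cells were sorted from 5 allograft models, and total RNA was sequenced with Illumina protocols. The authors deposited unnormalized counts of reads for each gene, with STAR 2.4.2.8 and build mm10 named in the submitters' processing notes. The annotation, library kit and strandedness were not given in the sources used here. Counts of the second strand setting were taken, since they held 96.9% to 97.1% of stranded reads. The 4 summary lines (21.3% to 24.3% of reads) were left out, and reads with several positions (5.99% to 9.74%) are not in the gene counts. Symbols and coordinates came from GENCODE vM21 (46005 of 46517 identifiers matched), and promoter windows from RefSeq on GRCm38.p6. No 2 libraries were identical.

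Pairs were compared in edgeR 4.0.16 under R 4.3.3 by the quasi-likelihood test on counts with TMM scaling, the filterByExpr filter and the tumour model as a block, two-sided, adjusted by Benjamini-Hochberg over 13986 genes and called under 0.05. The biological coefficient of variation was 0.196. The SE came from the F statistic. Same-lettered libraries come from the same model, and within a letter the deviations from population means had correlations of 0.628 to 0.867. CPM were computed on TMM-scaled totals, and pair differences on log2 CPM with a prior count of 2. Nothing says how many animals a model stands for, so p-values measure the spread between these 5 models. The code was tested on simulated counts.

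The members and lists were chosen with earlier results of these data known. Genes with a value in every library are, in each role, the 3 with the smallest p (2 in a role of 3 or fewer) and the 1 with the largest, plus Mki67; in each other list, the 2 with the smallest p are named, apart from an item that is not reported here. Alternatives were no block, RLE size factors, library totals, no filter, at least 1 CPM in 5 libraries, DESeq2 1.42.0, the likelihood-ratio test, unstranded counts and leaving out each pair.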

Additional observations from a re-analysis of the deposited data

Results flagged for a closer look

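For 3 genes the GFP- library of model A stood far from the other 4 GFP- libraries, with a gap above Dixon's 95% critical value for 5 samples. It held 18.4 CPM of Nek2, 29.8 CPM of Mad2l1 and 29.0 CPM of Espl1, in each case the highest GFP- value. These were 3 of 141 groups of 5 values examined, and chance flags about 1 in 20.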

How the results depend on the processing

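The number of members called by the paired test was 0 and changed to 3 without a filter, 17 in DESeq2 and 15 in the likelihood-ratio test, while the number of all genes called went from 0 to 47, 190 and 206. Without the replicate block, 19 members instead of 37 had an unadjusted p under 0.05, while the share of all tested genes fell from 8.99% to 1.36%. The count of members called stayed at 0, and 2 members instead of 9 differed between models, against 53.9% instead of 54.7% of tested genes. Leaving out 1 pair at a time gave 23 to 44 members at an unadjusted p under 0.05 (5.69% to 10.5% of tested genes). In those fits 1 to 24 members differed between models (28.6% to 53.5% of tested genes). That count was 21 without a filter (31.9% of tested genes), 25 in DESeq2 (60%) and 23 in the likelihood-ratio test (64.8%). Members higher in GFP+ cells numbered 44 to 46 and their median log2 difference was 0.48 (without pair B) to 0.90 (without pair A) in these leave-one-out fits, and 46 and 0.66 to 0.74 in the others. The sign turned in Ccnb2 when pair B was left out (-0.040) and in Cenpm when pair B (-0.19) or pair D (-0.044) was. Over these fits Ccnb2 ran from -0.040 to 0.34 and Cenpm from -0.19 to 0.42. Without pair B, 19 members moved by more than 1.5 times. The causes were not tested. Depth limits the genes of few reads, such as Cenpk at 27 to 82 reads per library.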

Other observations

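Levels per length, as RPKM (CPM divided by exon length in kilobases) averaged over the 10 libraries, ranked Cdc20 (18.2), Ccna2 (17.9), Ccnb2 (17.5) and Top2a (14.1) highest among the 47 genes and Cenpk (0.537) and Knl1 (1.16) lowest. Pttg1, at 8.06 RPKM and 241 to 438 reads per library, lay between Birc5 (8.14) and Aurka (7.90).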
